A study of Mus musculus with 12 samples.

Results

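Deletion of Rictor was examined in mouse leukemia driven by the fusion MLL-NRIP3, on 6 of the 12 Affymetrix arrays of the study. The arrays were chosen by their titles: 3 came from MLL-NRIP3 control leukemia, labelled Rictor wild type, and 3 from MLL-NRIP3 RictorΔ/Δ leukemia, labelled Rictor deletion. The other 6 arrays carry a different MLL fusion, MLL-AF9, with the same pair of genotypes. RNA came from bone marrow cells labelled K+G–. They were sorted from first recipients of transplanted marrow at the time when more than 50% of blood leukocytes carried CD45.2. The labels do not spell out K+G–, and they give peripheral blood as the host tissue although the cells are called bone marrow cells. The series text presents MLL-NRIP3 leukemia as a further test of what loss of Rictor does in MLL-AF9 leukemia. The labels give neither the means of deletion nor the age of the mice, and they do not tie each array to a mouse of its own. The p-values thus reflect array-to-array spread, part of which may be technical.

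Rictor encodes a scaffold subunit of mTORC2, a complex of the kinase mTOR. mTORC2 phosphorylates kinases of the AGC family, among them AKT, SGK1 and conventional protein kinase C, and AKT in turn keeps FOXO transcription factors out of the nucleus. MLL fusions drive leukemia through sustained expression of HOXA cluster genes and Meis1. Leukemia stem cells of such models are usually sought among immature myeloid cells that carry the receptor Kit. As myeloid cells mature to neutrophils they load their granules with proteins such as S100A8, S100A9, NGP and cathelicidin. AP-1, made of JUN and FOS proteins, belongs to the immediate early response, in which genes are transcribed within minutes of a stimulus without new protein synthesis.

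The 3 control arrays did not form a uniform group. On control arrays 1 and 2 the hybridization control probe sets, which read cRNA of bacterial and phage origin added to each sample, had a mean log2 signal of 11.2 and 10.6. The other 4 arrays lay between 9.31 and 9.53. The ratio of 5′ to 3′ Gapdh signal, a measure of RNA integrity and labelling, was 0.562 and 0.738 there and at least 0.881 elsewhere. Control array 3 correlated with the deleted arrays (r from 0.9725 to 0.9787 across genes) about as closely as with control arrays 1 and 2 (0.971 and 0.9769). Median intensities lay between 13.61 and 14.2. Precision is limited by having 3 arrays a group. Called genes are therefore given by array below, and also with control arrays 1 and 2 left out. That second comparison sets 3 deleted arrays against 1 control array, whose spread is assumed to be that of the deleted arrays.

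Of 12595 genes tested, 192 differed between Rictor-deleted and control leukemia at a Benjamini-Hochberg adjusted p under 0.05 in limma (1.52%), and such genes are termed called. Of these, 98 were higher in deleted leukemia (0.778% of the genes tested) and 94 lower (0.746%), and 103 changed at least 2-fold. Fold changes here are differences of mean log2(intensity + 16) and understate the change of dim genes. All 192 called genes had 3 values of one group above the 3 of the other, as did 1232 genes (9.78%) in the higher and 1617 (12.8%) in the lower direction among all genes tested. Leaving out 1 array at a time left between 30 calls (without control array 2) and 849 (without control array 3). There were 70 calls without control array 1, and 45, 66 and 233 without deleted arrays 1, 2 and 3. In all 6 omissions 28 genes were called, 18 higher and 10 lower. When the MLL-AF9 arrays were added to the estimate of the spread, 1771 genes were called (14.1%), 764 higher (6.07%) and 1007 lower (8%), among them all 192. The fold changes still came from the same 6 arrays. Median intensities were 8.16 to 8.36 on the MLL-AF9 arrays and 13.61 to 14.2 on the MLL-NRIP3 arrays, so the 2 models may not share 1 spread.

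Without control arrays 1 and 2, 29 genes were called (0.23%), and 21 of them were among the 192, 10 higher and 11 lower. All 192 kept their sign, but this was fixed in advance. In every called gene control array 3 lay on the same side of all deleted arrays. The log2 distance of control array 3 from the deleted mean was set against that of the mean of control arrays 1 and 2. The median share was 93.8% in the higher genes and 84.1% in the lower genes. Without control arrays 1 and 2 the log2 fold change fell below 2/3 of its 6-array size in 10 lower and 2 higher genes. Control array 3 was the lowest of the controls in 55 of the 94 lower genes and the highest in 45 of the 98 higher genes. The plot of log2 fold changes with and without these arrays shows the neutrophil genes Ngp, S100a9 and S100a8, and Ighm, nearer to 0 once control arrays 1 and 2 are left out.

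**Figure D1:**
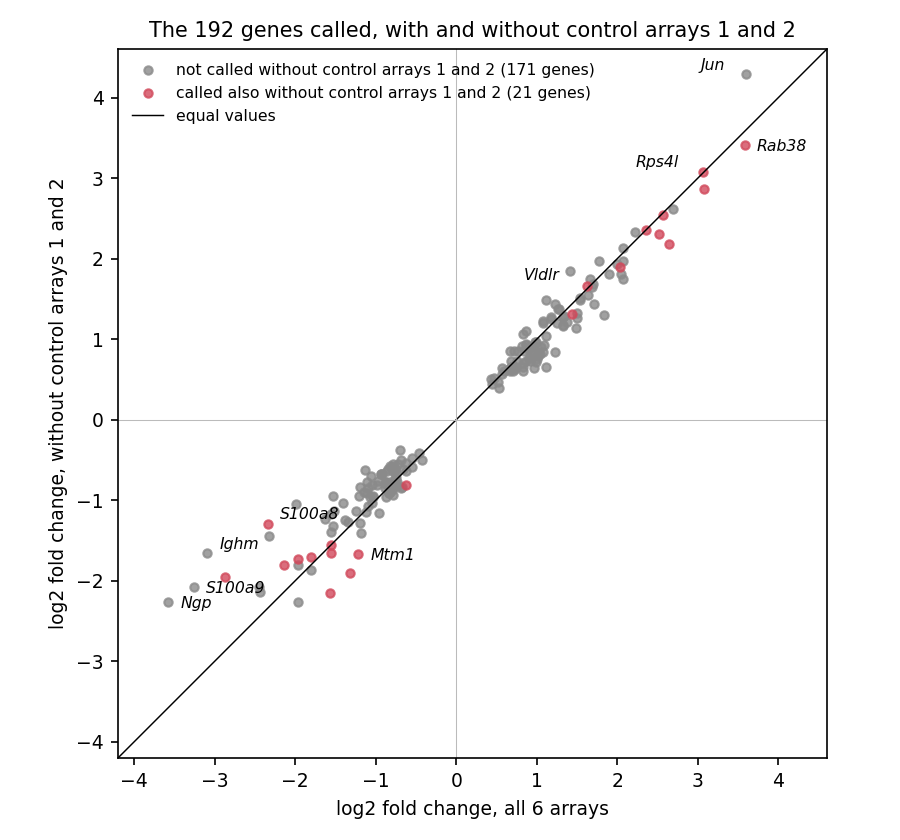
Log2 fold change (Rictor-deleted minus control, of log2(intensity + 16)) of the 192 called genes with all 6 arrays (horizontal axis) and without control arrays 1 and 2 (vertical axis), with a line of equal values. Genes called in both comparisons are red. All 192 points lie in the 2 quadrants of equal sign, as they must where the groups do not overlap.

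The Rictor probe sets did not check the genotype. The brightest read 87.5, 111 and 139 on the control arrays and 84.5, 107 and 121 on the deleted arrays, a log2 fold change of −0.09 ± 0.19 (SE, limma adjusted p = 0.84). The values of the groups overlapped. Of the other 4 probe sets, 3 had log2 differences between −0.13 and 0.06, and 1 read 45.2, 37.7 and 66.2 in controls and 138, 140 and 61.3 in deleted cells (log2 difference 0.93), with deleted array 3 among the controls. Neither the deleted exons nor the exons these probe sets read are stated in the labels, and probes on exons that remain can keep their signal. No tested gene among the 12 annotated neighbours on either side of Rictor on chromosome 15 was called. The smallest adjusted p there was that of Card6, at 90.9, 91.7 and 50.8 in controls and 32.1, 33.2 and 39.1 in deleted cells (log2 fold change −0.85 ± 0.20 SE, adjusted p = 0.081). The probe set of Nrip3, the partner in the fusion, read 3.53 to 4.12 in controls and 4.61 to 5.41 in deleted cells, below the level needed for a test.

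Surface genes of leukocytes and progenitors were read on all 6 arrays, without assigning them to K or G. Ptprc, which encodes CD45, read 1686, 1794 and 2244 in controls and 1951, 1843 and 1813 in deleted cells, with overlapping groups. Kit, the stem cell factor receptor, read 307, 390 and 326 in controls and 572, 406 and 593 in deleted cells. All 3 deleted arrays lay above the controls for Kit, by a log2 difference of 0.58 ± 0.17 (SE) that did not pass the threshold (adjusted p = 0.13). In a list of 9 tested surface genes of the Ly6 family and of progenitor gates, Cd34 alone was called. It was higher, against 0.778% of all genes, and the list's median was −0.03. Itgam, the myeloid integrin CD11b, read 111, 93.6 and 158 in controls and 166, 172 and 165 in deleted cells (adjusted p = 0.25). The group means of Xist were 3112 ± 418 and 2698 ± 164 (SD, n = 3 each), and the Y-linked Eif2s3y read 2.57 ± 1.02 and 2.17 ± 0.0857 (SD, n = 3 each), too dim to be tested. Gata1 (erythroid, 8.84 to 11.8), Pax5 (B cells, 7.04 to 11.6) and Cd3e (T cells, 10 to 17) were near the floor on every array. Other genes of these lineages were brighter. The control means were 1437 for Nfe2 and 401 for Tfrc (erythroid), 689 for Ighm (B lineage) and 155 for Nkg7 (T and NK).

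Most genes of mature neutrophils and secondary granules read lower in Rictor-deleted leukemia, and a minority of them were called. Of 24 tested members, 5 were called lower and none higher, where 0.746% of all genes were called lower. In 13 members all 3 controls lay above all 3 deleted arrays, against 12.8% of all genes. A positive log2 fold change was seen in 4 of the 24. The list's median log2 fold change was −0.67, against −0.0006 over all genes tested, and −0.57 without control arrays 1 and 2. In a sorted bulk sample, fewer cells of a type and less RNA per cell cannot be told apart.

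S100a9 and S100a8, which lie next to each other on chromosome 3 and encode the subunits of calprotectin, were both called lower. S100a9 read 5446, 2134 and 983 on control arrays 1, 2 and 3 and 277, 162 and 239 on the deleted arrays. Every control array lay above every deleted array, and the controls themselves spanned a wider range than the gap between the groups. The log2 fold change was −3.26 ± 0.51 (SE, limma adjusted p = 0.027). S100a8 read 5219, 2976 and 1315 in controls and 563, 475 and 547 in deleted cells (log2 fold change −2.34 ± 0.40 SE, adjusted p = 0.033). The pair moved together, so their promoters are shown, each from 250 bases before to 50 after the start given by RefSeq (build GRCm38.p6), at chr3:90668821-90669120 on the plus strand for S100a8 and chr3:90695672-90695971 on the minus strand for S100a9. Capitals mark matches, on either strand, to TATAAA, the TATA box, and to TTGCNNAA, a motif of C/EBP factors:
S100a8: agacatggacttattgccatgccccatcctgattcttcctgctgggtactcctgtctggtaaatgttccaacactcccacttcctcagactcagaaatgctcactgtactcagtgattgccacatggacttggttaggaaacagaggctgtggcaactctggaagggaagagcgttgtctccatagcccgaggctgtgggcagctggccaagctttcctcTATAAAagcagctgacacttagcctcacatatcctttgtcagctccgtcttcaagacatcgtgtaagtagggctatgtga
S100a9: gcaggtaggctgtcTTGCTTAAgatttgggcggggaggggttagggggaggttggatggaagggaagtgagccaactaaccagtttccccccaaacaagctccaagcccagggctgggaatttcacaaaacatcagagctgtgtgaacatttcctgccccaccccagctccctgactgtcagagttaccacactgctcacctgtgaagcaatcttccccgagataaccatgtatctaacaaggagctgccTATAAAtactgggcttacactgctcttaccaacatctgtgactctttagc
Both windows hold TATAAA, and that of S100a9 also holds TTGCNNAA. Of all 27025 promoters of this length, 14.2% hold the first and 10.8% the second. Among the promoters of called lower genes the shares were 6 of 77 (7.79%) and 9 of 77 (11.7%), against 7.28% and 8.11% of the 10209 tested genes with a promoter. These matches are a description and say nothing of binding.

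Ngp, Stfa2l1 and Padi4 were the other called members of the list. Ngp, a protein of secondary granules, showed the largest decrease of all named genes, from 5097, 2367 and 875 in controls to 201, 79.9 and 290 in deleted cells (log2 fold change −3.58 ± 0.61 SE, limma adjusted p = 0.032). Stfa2l1, of the stefin A family of cysteine protease inhibitors, read 466, 164 and 97.7 in controls and 17.2, 7.28 and 16.7 in deleted cells (−2.87 ± 0.45 SE, adjusted p = 0.027). Padi4, which citrullinates histones when neutrophils release chromatin, was the most even of the 5 across controls, at 245, 302 and 227 against 55.7, 118 and 66.3 (−1.56 ± 0.24 SE, adjusted p = 0.025). In Ngp, Stfa2l1, S100a8 and S100a9, control array 1 was the highest and control array 3 the lowest of the controls.

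These calls depended on single arrays. Without control arrays 1 and 2 the log2 fold changes were −2.26 for Ngp, −2.08 for S100a9, −1.95 for Stfa2l1, −1.29 for S100a8 and −1.39 for Padi4, with adjusted p of 0.26, 0.064, 0.041, 0.045 and 0.27. Thus Stfa2l1 and S100a8 passed the threshold in that comparison too. All 5 calls ended without control array 2 and without deleted array 1. Those of Ngp, S100a8 and Padi4 also ended without control array 1, those of Ngp, S100a9, Stfa2l1 and S100a8 without deleted array 2, and those of S100a9, Stfa2l1, S100a8 and Padi4 without deleted array 3 (adjusted p from 0.053 to 0.12). Omitting control array 1 gave −2.97 for Ngp and −2.63 for S100a9, and omitting control array 3 gave −4.23 and −3.85. The list summed to 28445, 14275 and 10573 in controls and 5099, 8508 and 9740 in deleted cells, and the sums on control array 3 and deleted array 3 were close. Such a sum is weighted to bright members, among them Chil3, whose groups overlapped. The 5 called members were each higher on control array 3, with Ngp, S100a9 and S100a8 at 875, 983 and 1315 there and 290, 239 and 547 on deleted array 3. The hybridization control signal and the Gapdh ratio moved with the same control arrays, and their part in these differences was not tested.

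The other 19 members were not called, some with large differences. Camp, the cathelicidin, read 3343, 1109 and 443 in controls and 175, 39.7 and 153 in deleted cells, a log2 difference of −3.30 ± 0.70 (SE) that did not pass the threshold (adjusted p = 0.064) and was −1.91 without control arrays 1 and 2. Ltf, lactoferrin, read 741 on control array 1, 87.9 on control array 2 and 19.9 on control array 3, against 8.46 to 13.2 in deleted cells (log2 difference −2.40, adjusted p = 0.21). Trem3, an activating receptor of myeloid cells, had even controls, at 510, 521 and 597, and read 263, 187 and 348 in deleted cells, with an adjusted p of 0.051. In Camp, Ltf and Trem3 all controls lay above all deleted arrays. The groups overlapped for the chitinase-like Chil3 (2709 to 3992 and 2001 to 6351), for Lcn2 (483 to 863 and 289 to 593), for Csf3r, the G-CSF receptor (211 to 331 and 224 to 326), and for Cd177 (209 to 404 and 159 to 256).

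Primary granule genes of promyelocytes, the stage before secondary granules form, showed no such shift. None of 14 tested members was called in limma, and the list's median was −0.01. An unadjusted p under 0.05 was seen in 3 members, against 2235 of all 12595 genes. Elane, neutrophil elastase, read 1289, 2911 and 1809 in controls and 2499, 2834 and 2927 in deleted cells. Mpo, myeloperoxidase, read 914 and 3198 on control arrays 1 and 2 but 77.4 on control array 3, which lay within the range of the deleted arrays (68.7 to 352). Igsf6 (693 ± 101 and 444 ± 66.6) and Gstm1 (1528 ± 74.6 and 1219 ± 72.3, SD, n = 3 each) had the smallest p of the list and were not called.

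Other genes of phagocytes and of immune receptors were also lower. Cybb, the catalytic subunit of the phagocyte NADPH oxidase, fell from 953, 524 and 256 in controls to 111, 131 and 104 in deleted cells (log2 fold change −1.99 ± 0.38 SE, limma adjusted p = 0.047). Tlr1, a Toll-like receptor of bacterial lipopeptides, had close replicates, at 119, 126 and 135 in controls and 28.8, 30.6 and 37.6 in deleted cells (−1.56 ± 0.14 SE, adjusted p = 0.002). Olfm4, a protein of a subset of neutrophil granules, read 153, 74.3 and 107 against 24.1, 30.8 and 22.7 (−1.56 ± 0.22 SE, adjusted p = 0.019). Tlr1 stayed called in each omission of 1 array and without control arrays 1 and 2 (−1.65, adjusted p = 0.044). Olfm4 was called without those 2 arrays (−1.56, adjusted p = 0.044) but not without deleted array 1 or 2 (0.053 and 0.074). The call of Cybb ended in every omission except that of control array 3 (0.084 to 0.15), and its log2 fold change was −1.05 without control arrays 1 and 2.

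Ighm, the immunoglobulin mu heavy chain, read 1113, 759 and 195 in controls and 59.6, 35.4 and 60.2 in deleted cells, a log2 fold change of −3.09 ± 0.53 (SE, limma adjusted p = 0.032). Control array 3 lay below its fellow controls and above all deleted arrays. Ighm was the single member called among 8 tested B lineage genes, against 0.746% of all genes called lower. The median of the 8 was −0.02. The B cell genes Pax5, Ms4a1 and Vpreb1 stayed near the floor, between 6.22 and 11.6 on all 6 arrays. The call of Ighm ended in every omission except that of control array 3 (adjusted p from 0.070 to 0.12), and its log2 fold change was −3.81 when that array was left out. Set against control array 3 alone it was −1.66 (adjusted p = 0.12). A second Ighm probe set read 743, 419 and 76.5 in controls and 25, 10.4 and 17.9 in deleted cells. The remaining Ighm probe sets read 34.7 or less on every array, with log2 differences between −0.10 and 0.06.

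**Figure D2:**
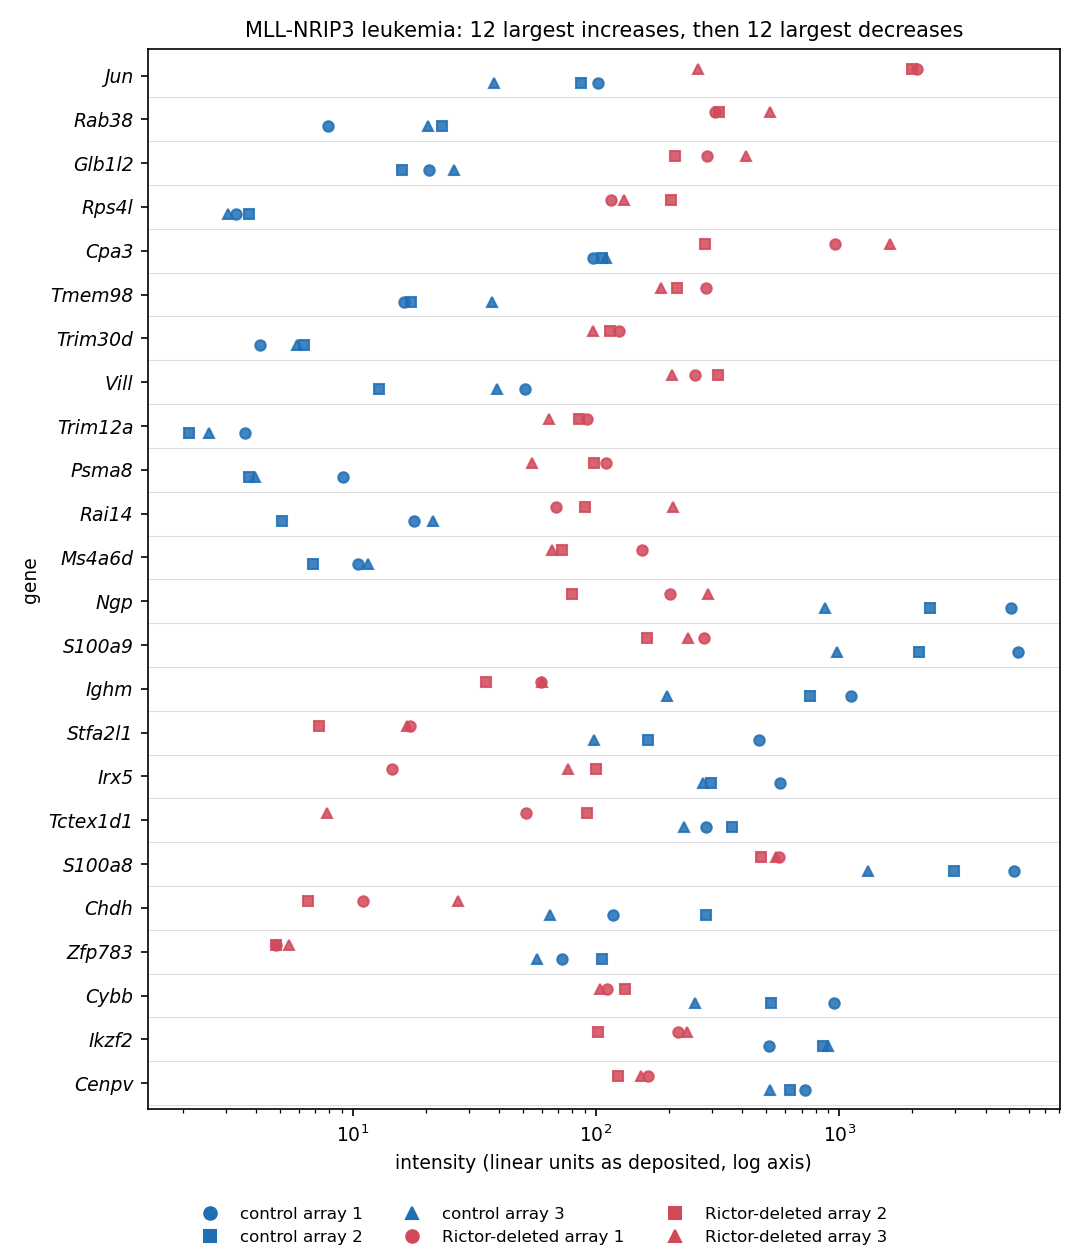
Intensity (log axis) on each of the 6 arrays for the 12 called genes with the largest increase and the 12 with the largest decrease, clone names and predicted genes left out. Blue symbols are control arrays and red symbols Rictor-deleted arrays, 1 shape per array. No groups overlap, since every called gene has separate groups. Control array 3 is the lowest control in each of the 12 decreases except Ikzf2.

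Monocyte and macrophage genes did not move as a list. Of 20 tested members 1 was called higher, against 0.778% of all genes, and none lower. This was Ms4a6d, a membrane protein of the MS4A family, which rose from 10.5, 6.87 and 11.5 to 155, 72.4 and 66.0 (log2 fold change 2.07 ± 0.26 SE, limma adjusted p = 0.012). Its call ended without control array 2 (0.064), and without control arrays 1 and 2 its log2 fold change was 1.97 (adjusted p = 0.18). The list's median was −0.13 with all arrays and turned to 0.14 without control arrays 1 and 2. Ctss, the protease cathepsin S, and Csf1r, the M-CSF receptor, read 1549 and 1076 on control array 1 but 254 and 246 on control array 3, against 118 to 203 and 272 to 560 in deleted cells.

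Genes of mast cells and basophils were among the increases. Cpa3, a protease of mast cell granules, read 97.1, 106 and 110 in controls and 959, 280 and 1616 in deleted cells (log2 fold change 2.69 ± 0.51 SE, limma adjusted p = 0.046). The controls agreed closely and the deleted arrays differed, with array 2 the lowest. Hdc, the enzyme that makes histamine, read 163, 154 and 185 against 492, 353 and 491 (1.32 ± 0.16 SE, adjusted p = 0.011). These were the 2 members called of 10 tested in the list of mast cells, basophils and eosinophils, against 0.778% of all genes called higher. All deleted arrays lay above all controls in 5 of the 10, against 9.78% of all genes. The median was 0.30, and 0.48 without control arrays 1 and 2.

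Ms4a2, the beta chain of the high-affinity IgE receptor, read 22.1, 24.0 and 16.4 in controls and 123, 36.8 and 110 in deleted cells (adjusted p = 0.080), and deleted array 2 was again the lowest. Gata2, a transcription factor of progenitors and mast cells, read 204, 146 and 212 against 275, 251 and 285 (adjusted p = 0.16). The proteases of mature mast cells stayed dim, with Mcpt4 between 7.58 and 10.3 and Cma1 between 2.97 and 4.39, and the alpha chain of the IgE receptor, Fcer1a, between 2.12 and 3.10. The eosinophil genes Prg2, Prg3 and Epx did not pass the threshold or were too dim to be tested. The list summed to 1123, 1181 and 1158 in controls and 2764, 1581 and 3358 in deleted cells, and the part of such cells in other results was not tested. Without deleted array 2 Cpa3 had a log2 fold change of 3.39. The call of Cpa3 ended when control array 1 or 2, or deleted array 1 or 3, was left out (0.071 to 0.15), that of Hdc without control array 2 or deleted array 1 (0.050 to 0.062). Neither passed without control arrays 1 and 2 (log2 fold changes 2.62 and 1.18, adjusted p of 0.38 and 0.15).

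Several genes of stem and progenitor cells were higher. Cd34, a surface sialomucin of hematopoietic progenitors, rose from 376, 284 and 203 to 833, 564 and 967 (log2 fold change 1.41 ± 0.25 SE, limma adjusted p = 0.035). Runx1, a transcription factor required for definitive hematopoiesis, rose from 116, 132 and 111 to 230, 190 and 221 (0.76 ± 0.14 SE, adjusted p = 0.042). These were the 2 members called of 20 tested, against 0.778% of all genes called higher. A positive log2 fold change was seen in 12 of the 20. All deleted arrays lay above all controls in 8 of the 20, against 9.78% of all genes, and the reverse held in 1, against 12.8%. The median was 0.16, and 0.21 without control arrays 1 and 2. Angpt1, a ligand of the receptor TIE2, read 223, 147 and 326 against 529, 378 and 592 (adjusted p = 0.091). Itga2b, the integrin CD41 of megakaryocytes and early progenitors, rose from 43.1, 46.0 and 38.6 to 109, 108 and 135 (1.18 ± 0.15 SE, adjusted p = 0.011). It was the 1 member called of 8 tested in the list of megakaryocytes and platelets, against 0.778% of all genes called higher. The platelet genes Pf4 and Gp9 stayed between 10.7 and 22.9 on all arrays.

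None of these calls was kept without control arrays 1 and 2, though the sizes were not smaller. The log2 fold changes were then 1.84 for Cd34, 0.85 for Runx1 and 1.28 for Itga2b (adjusted p of 0.090, 0.23 and 0.12). The call of Itga2b ended without control array 2 (0.058), that of Cd34 without control array 2 or deleted array 1 or 3 (0.081 to 0.12), and that of Runx1 in every omission except that of control array 3 (0.069 to 0.18).

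HOXA genes, the main targets of MLL fusions, were read next. Hoxa5 was called higher, from 387, 382 and 630 in controls to 984, 1008 and 1028 in deleted cells (log2 fold change 1.12 ± 0.18 SE, limma adjusted p = 0.028). The deleted arrays agreed within a narrow range, and control array 3 lay between its fellow controls and the deleted arrays. Hoxa9 (2219 to 3055 and 3221 to 3804), Hoxa10 (103 to 158 and 168 to 231) and Meis1 (268 to 350 and 386 to 449) also had all deleted arrays above all controls, without passing the threshold (adjusted p of 0.13, 0.13 and 0.15). Of 23 tested members of the list of MLL targets and cofactors 1 was called, against 0.778% of all genes called higher. Of the 23, 14 were positive. All deleted arrays lay above all controls in 7, against 9.78% of all genes, and the reverse held in 2, against 12.8%. The median was 0.18 with and without control arrays 1 and 2. Hoxa5 had a log2 fold change of 0.66 without those arrays (adjusted p = 0.16), and its call ended in every omission except that of control array 3 (0.065 to 0.10). Flt3, a receptor tyrosine kinase of progenitors, read 1500, 715 and 670 against 417, 378 and 372 (adjusted p = 0.080).

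Jun and Fos, which encode subunits of AP-1, were higher in Rictor-deleted leukemia. Jun rose 12.2-fold, from 102, 86.5 and 38.1 in controls to 2087, 1983 and 263 in deleted cells (log2 fold change 3.60 ± 0.71 SE, limma adjusted p = 0.050, just under the threshold). Fos rose 2.89-fold, from 830, 709 and 786 to 2647, 2938 and 1496 (1.53 ± 0.23 SE, adjusted p = 0.021). In both genes every deleted array exceeded every control array, and deleted array 3 was the lowest of the deleted. Of 28 tested AP-1 and immediate early factors, 2 were called higher and none lower, where 0.778% of all genes were called higher. The median was 0.48, with 24 of the 28 positive and 10 with all deleted arrays above all controls, against 9.78% of all genes, and it was 0.49 without control arrays 1 and 2.

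A list of feedback inhibitors of MAPK, JAK-STAT and NF-κB signalling gave 4 calls among 24 tested, all higher, against 0.778% of all genes. Dusp1 and Nfkbiz act on signalling, whereas Cxcl2 and Ptgs2 are induced products rather than inhibitors. Dusp1, a phosphatase that inactivates MAP kinases, rose from 552, 497 and 542 to 2346, 2403 and 934 (log2 fold change 1.69 ± 0.32 SE, limma adjusted p = 0.045). Nfkbiz, a nuclear IκB protein, rose from 136, 58.5 and 92.6 to 350, 411 and 256 (1.70 ± 0.27 SE, adjusted p = 0.027). Cxcl2, a neutrophil-attracting chemokine, read 56.9, 26.7 and 29.6 against 183, 211 and 109 (1.77 ± 0.27 SE, adjusted p = 0.025). Ptgs2, the inducible cyclooxygenase, read 4.07, 6.24 and 6.09 against 28.6, 35.4 and 15.3 (0.96 ± 0.16 SE, adjusted p = 0.032). Deleted array 3 was the lowest of the deleted arrays in all 4. The median of this list was 0.14 over its 24 tested members, and 0.19 without control arrays 1 and 2, and 1 further member had an unadjusted p under 0.05.

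Jun, Fos and Dusp1 moved together across the arrays, and their promoters are printed with matches to motifs of the factors that bind such genes. The windows lie at chr4:95052173-95052472 on the minus strand for Jun, chr12:85473640-85473939 on the plus strand for Fos and chr17:26508423-26508722 on the minus strand for Dusp1 (GRCm38.p6, RefSeq). Motifs were read on both strands. Capitals mark TGACNTCA and TGACGT, bound by ATF, CREB and JUN proteins, and TATAAA. A full palindrome is a match to both of the first 2 motifs:
Jun: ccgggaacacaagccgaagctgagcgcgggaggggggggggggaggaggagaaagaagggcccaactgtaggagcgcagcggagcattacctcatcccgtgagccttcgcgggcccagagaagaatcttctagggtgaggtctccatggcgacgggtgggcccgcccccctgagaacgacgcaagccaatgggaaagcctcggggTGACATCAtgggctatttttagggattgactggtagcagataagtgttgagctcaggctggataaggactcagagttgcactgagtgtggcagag
Fos: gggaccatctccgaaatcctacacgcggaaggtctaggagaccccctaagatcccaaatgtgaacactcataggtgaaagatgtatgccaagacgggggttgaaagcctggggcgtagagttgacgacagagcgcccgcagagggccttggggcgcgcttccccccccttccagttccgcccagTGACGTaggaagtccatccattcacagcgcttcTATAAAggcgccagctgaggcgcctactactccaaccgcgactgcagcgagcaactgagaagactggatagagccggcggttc
Dusp1: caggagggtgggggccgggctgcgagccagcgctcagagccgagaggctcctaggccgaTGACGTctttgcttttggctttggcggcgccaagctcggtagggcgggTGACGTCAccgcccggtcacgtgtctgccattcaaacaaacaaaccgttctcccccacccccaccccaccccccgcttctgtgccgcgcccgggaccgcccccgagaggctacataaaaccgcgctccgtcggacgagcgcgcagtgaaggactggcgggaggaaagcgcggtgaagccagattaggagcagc
The Jun window holds 1 match to TGACNTCA, that of Fos 1 to TGACGT and 1 to TATAAA, and that of Dusp1 1 to TGACNTCA and 3 to TGACGT, of which 2 are the strands of the palindrome. TGACGT is in 7.64% of all 27025 promoters and TGACNTCA in 8.97%. Among promoters of called higher genes TGACGT was in 12 of 73 (16.4%), among those of called lower genes in 6 of 77 (7.79%), and among tested genes in 11.7%. TGACNTCA was in 7 of 73 (9.59%), 5 of 77 (6.49%) and 7.22%. The AP-1 site TGANTCA was in 5 of 73 (6.85%), 5 of 77 (6.49%) and 5.10%. These shares carry no test.

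**Figure D3:**
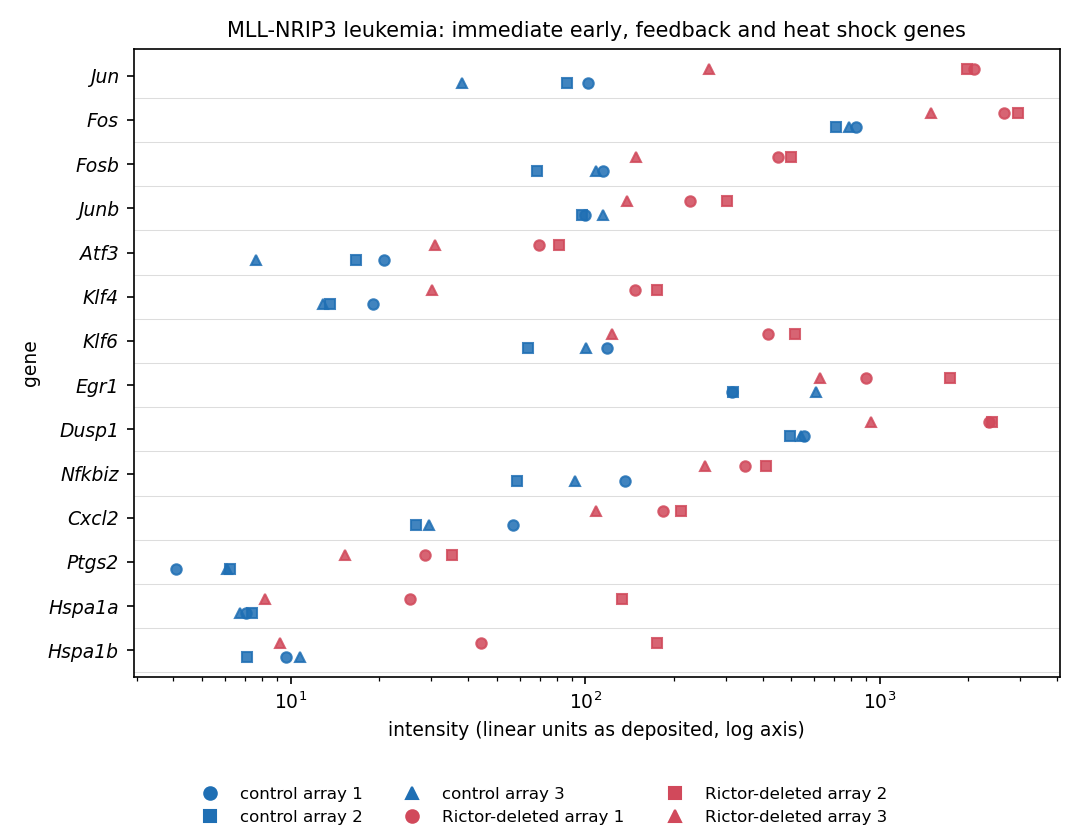
Intensity (log axis) of 14 immediate early, feedback and heat shock genes on each of the 6 arrays. Blue symbols are control arrays and red symbols Rictor-deleted arrays. Deleted array 3 lies nearest to the controls in Jun, Fos, Klf4, Klf6 and Dusp1.

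Other members followed the same order of arrays without being called. Fosb read 115, 68.6 and 109 in controls and 450, 500 and 149 in deleted cells, and Atf3 20.8, 16.7 and 7.63 against 69.9, 81.7 and 30.8 (adjusted p of 0.096 and 0.071). Klf4, a zinc finger factor of monocytes and of quiescent cells, read 19.0, 13.6 and 12.9 against 148, 175 and 30.3 (adjusted p = 0.094). Klf2 read 587, 500 and 249 against 1719, 1936 and 485, so that deleted array 3 fell among the controls. Egr1 differed in its order, at 316, 317 and 607 in controls and 900, 1729 and 626 in deleted cells. Members with little difference were Myc (94.4 to 240 and 161 to 223), Nr4a1 (43.3 to 75.0 and 68.2 to 105), Egr2 and Egr3.

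Single arrays carried much of this group. Without deleted array 3 the log2 fold change of Jun was 4.56 and that of Klf4 2.51. The calls of Jun, Fos, Dusp1 and Ptgs2 ended without control array 1 or 2 or deleted array 1 or 2, and those of Nfkbiz and Cxcl2 without control array 2 or deleted array 1 or 2 (adjusted p from 0.063 to 0.15). Without control arrays 1 and 2 the log2 fold changes were 4.29, 1.51, 1.65, 1.68, 1.97 and 0.91 for Jun, Fos, Dusp1, Nfkbiz, Cxcl2 and Ptgs2, and none was called (adjusted p from 0.099 to 0.36). A second Jun probe set read 48.8, 24.1 and 13.7 against 243, 201 and 70.8.

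Heat shock genes did not pass the threshold, with 0 of 21 tested members called by limma. An unadjusted p under 0.05 was seen in 6, against 2235 of all 12595 genes. Of the 21, 19 were positive (median 0.21, and 0.28 without control arrays 1 and 2). The inducible Hspa1a read 7.03, 7.42 and 6.75 in controls and 25.5, 133 and 8.2 in deleted cells, and Hspa1b 9.67, 7.11 and 10.8 against 44.3, 175 and 9.21. Deleted array 3 was at the control level for both, and array 2 was the highest. The constitutive Hspa8 had close replicates, at 3376 ± 126 and 4165 ± 97.4 (SD, n = 3 each, adjusted p = 0.077), as had its partner Dnaja1 (774 ± 6.63 and 990 ± 83.7, adjusted p = 0.14).

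Other large increases were kept whichever array was left out. Rab38, a small GTPase of lysosome-related organelles, rose from 7.91, 23.3 and 20.4 to 308, 320 and 520 (log2 fold change 3.58 ± 0.25 SE, limma adjusted p = 8.5e-04). Glb1l2, a beta-galactosidase-like protein, rose from 20.5, 15.9 and 26.1 to 285, 212 and 412 (3.07 ± 0.23 SE, adjusted p = 0.0012). Tmem98, a transmembrane protein, rose from 16.3, 17.3 and 37.4 to 284, 216 and 185 (2.64 ± 0.24 SE, adjusted p = 0.002). Vill, a villin-like actin-binding protein, rose from 51.1, 12.8 and 39.2 to 255, 317 and 206 (2.52 ± 0.31 SE, adjusted p = 0.011). All 4 kept their call in each omission of 1 array and without control arrays 1 and 2, at log2 fold changes of 3.41, 2.87, 2.18 and 2.30 (adjusted p from 0.024 to 0.043).

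Further genes that rose in every such comparison were Vldlr and Fut8. Vldlr, the very low density lipoprotein receptor, read 101, 74.7 and 82.8 in controls and 299, 292 and 296 in deleted cells (log2 fold change 1.62 ± 0.14 SE, limma adjusted p = 0.002). It was the single gene called of 27 tested ATF4 targets and unfolded protein response genes, against 0.778% of all genes called higher. All 6 Vldlr probe sets had positive differences, from 0.95 to 1.80. The 27 tested ATF4 and unfolded protein response genes had a median of 0.24, and 22 were positive. All deleted arrays lay above all controls in 9 of them, against 9.78% of all genes, and the reverse held in 1, against 12.8%. Fut8, the enzyme that adds core fucose to N-glycans, rose from 570, 746 and 754 to 1977, 2015 and 1688 (1.44 ± 0.13 SE, adjusted p = 0.0022). Without control arrays 1 and 2 their log2 fold changes were 1.66 and 1.31 (adjusted p of 0.035 and 0.038).

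Rps4l and Trim30d were near the floor on all controls and bright on all deleted arrays. Rps4l, a paralog of the ribosomal protein gene Rps4x, read 3.30, 3.73 and 3.07 in controls and 115, 203 and 130 in deleted cells (log2 fold change 3.06 ± 0.19 SE, limma adjusted p = 3.1e-04). Trim30d, of the TRIM family that includes antiviral ubiquitin ligases, read 4.14, 6.30 and 5.89 against 124, 114 and 97.6 (2.57 ± 0.12 SE, adjusted p = 1.7e-04). For such genes the fold change depends on the constant added before the logarithm and is no measure of its true size. Trim12a (3.60, 2.13 and 2.56 against 92.2, 84.8 and 63.8) and Psma8, a proteasome subunit of germ cells (9.15, 3.75 and 3.98 against 110, 97.8 and 54.5), showed nearly the same pattern. Rps4l, Trim30d and Trim12a were also called without control arrays 1 and 2 (adjusted p from 0.020 to 0.029), whereas Psma8 was not (0.081).

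The Trim genes share a cluster on chromosome 7. In the order of the RefSeq annotation, Trim6, Trim34a, Trim5, Trim12a, Trim12c, Trim30a and Trim30d were measured there. Trim34a rose from 5.00, 7.36 and 9.20 to 81.1, 75.9 and 78.0 (log2 fold change 2.03 ± 0.11 SE, limma adjusted p = 1.7e-04) and Trim5 from 26.8, 17.6 and 22.1 to 55.4, 63.7 and 47.8 (0.91 ± 0.14 SE, adjusted p = 0.025). Trim12c, between them and Trim30d, did not follow, with 85.9, 99.6 and 149 in controls and 107, 97.1 and 99.9 in deleted cells, nor did Trim30a (149, 110 and 162 against 200, 214 and 128). Trim6 had a log2 fold change of 0.37 ± 0.08 (SE, adjusted p = 0.075). Paralogs of this family resemble each other in sequence, and whether the probe sets tell them apart was not tested here. The second probe sets of Trim34a, Trim12a and Trim30d differed from the first, with log2 differences of −0.34, 0.15 and 0.22. The call of Trim5 ended without control array 2 or deleted array 1 or 2 (0.085 to 0.10), and without control arrays 1 and 2 (0.22).

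Some called genes lay beside another called gene. There were 19 pairs with at most 2 tested genes between them, of which 18 moved the same way. Ctdspl, a phosphatase of RNA polymerase II, lies beside Vill and rose from 48.2, 31.6 and 80.7 to 174, 266 and 236. Ctla2a and Ctla2b, cysteine protease inhibitors on chromosome 13, rose from 6.58, 8.02 and 9.14 to 75.6, 46.2 and 137, and from 5.39, 3.95 and 10.2 to 60.1, 66.0 and 109. Pecam1, the adhesion molecule CD31, and its neighbour Milr1, an inhibitory receptor of mast cells, both fell, with log2 fold changes of −1.53 and −1.03, as did Esr1 and Syne1 (−1.05 each). The homeobox gene Irx5 fell from 572, 297 and 275 to 14.5, 99.6 and 76.4, and the noncoding Crnde next to it from 72.4, 38.0 and 41.1 to 13.9, 16.6 and 19.6. The exception was Trim68, called lower, which has 2 tested genes but 91 protein-coding genes between it and Trim34a. The share of tested genes called lay between 0.733% on chromosome 8 and 2.45% on chromosome 16, and the counts of pairs carry no test.

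Ctla2b kept its call in each omission of 1 array. The calls of Ctdspl, Ctla2a, Milr1, Syne1, Crnde, Pecam1, Esr1, Irx5 and Trim68 each ended in at least 2 omissions. These were control arrays 1 and 2 and deleted array 2 for Ctdspl and control arrays 1 and 2 and deleted array 1 for Ctla2a (adjusted p from 0.053 to 0.078), and control array 2 and deleted array 2 for Syne1 (0.066 to 0.091). For Milr1 they were control arrays 1 and 2 and deleted arrays 1 and 2, and for Crnde control array 2 and any deleted array (0.072 to 0.16). For Pecam1, Esr1, Irx5 and Trim68 they were all except control array 3 (0.053 to 0.16). None of these 10 genes was called without control arrays 1 and 2, and the log2 fold change of Irx5 was −1.87 without deleted array 1.

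Zfp783, Cenpv and Lin28a were among the 10 decreases called in all 6 omissions. Zfp783, a zinc finger protein, read 72.5, 106 and 57.2 in controls and 4.82, 4.83 and 5.46 in deleted cells (log2 fold change −2.14 ± 0.17 SE, limma adjusted p = 0.0014). Cenpv, centromere protein V, fell from 721, 628 and 521 to 164, 123 and 153 (−1.97 ± 0.16 SE, adjusted p = 0.0014). Lin28a, an RNA-binding protein that blocks let-7 maturation, fell from 77.3, 106 and 80.4 to 15.8, 13.7 and 11.9 (−1.80 ± 0.14 SE, adjusted p = 0.0014). All 3 were called in each omission of 1 array and without control arrays 1 and 2, at −1.80, −1.73 and −1.70 (adjusted p of 0.0029, 0.045 and 0.020).

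Ikzf2, the transcription factor Helios, fell from 514, 854 and 897 to 218, 102 and 236 (log2 fold change −1.97 ± 0.31 SE, limma adjusted p = 0.027). Without control arrays 1 and 2 its log2 fold change was −2.26 and it was not called (adjusted p = 0.13). Mtm1, the phosphoinositide phosphatase myotubularin, fell from 1319, 1752 and 2422 to 676, 897 and 700 (−1.22 ± 0.21 SE, adjusted p = 0.032), and by 1.67 on the log2 scale without those arrays (adjusted p = 0.039). Dnajc6, the clathrin uncoating cofactor auxilin, fell from 97.0, 101 and 196 to 48.3, 34.6 and 40 (−1.32 ± 0.25 SE, adjusted p = 0.045), and Plekha7, a junction protein, from 14.6, 20.1 and 23.8 to 6.97, 6.83 and 6.41 (−0.63 ± 0.10 SE, adjusted p = 0.025). In these last 3 genes control array 3 was the highest control. Of the further Mtm1 probe sets, 1 had a log2 difference of −1.54 and a dimmer 1 had 0.60. Without control arrays 1 and 2 Dnajc6 and Plekha7 were called, at −1.90 and −0.81 (adjusted p of 0.041 and 0.038). Chdh, choline dehydrogenase, and Tctex1d1, a dynein light chain family member, had large but uneven decreases, from 117, 284 and 64.6 to 11, 6.52 and 27.1 and from 284, 363 and 229 to 51.5, 92.0 and 7.87.

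Single arrays ended most of these calls. For Ikzf2 they were control array 2 and deleted array 1 (adjusted p of 0.059 and 0.10), for Mtm1 and Plekha7 control array 2 and any deleted array (0.052 to 0.11), for Dnajc6 and Chdh every array except control array 3 (0.056 to 0.14), and for Tctex1d1 control arrays 1 and 2 and deleted array 1 (0.11 to 0.16). Tctex1d1 went from −2.44 to −1.83 without deleted array 3. Against control array 3 alone Chdh (0.22) and Tctex1d1 (0.43) were not called. Of the increases, Rai14, an actin-binding protein (17.8, 5.12 and 21.4 against 68.3, 90.3 and 207, adjusted p = 0.032), lost its call without control array 1 or 2 or deleted array 2 (0.089 to 0.11), and without control arrays 1 and 2 (0.33).

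Transcripts of the mTOR complexes and the AGC kinases they control gave few calls. Of 30 tested members 1 was called lower, against 0.746% of all genes, and none higher. This was Prkcb, a conventional protein kinase C, which fell from 754, 850 and 872 to 500, 483 and 480 (log2 fold change −0.74 ± 0.10 SE, limma adjusted p = 0.018). Its call ended without control array 2 or deleted array 1 or 2 (0.076 to 0.097), and without control arrays 1 and 2 its log2 fold change was −0.82 (adjusted p = 0.12). Sgk1 read 132, 100 and 68.1 against 170, 197 and 194 (adjusted p = 0.094). The groups overlapped for Mtor (154 to 217 and 142 to 201), Akt1 (296 to 384 and 276 to 321), Akt2 (128 to 147 and 131 to 144) and Deptor. Mapkap1, the mTORC2 subunit SIN1, read 135 to 146 and 152 to 175 (adjusted p = 0.44). The median of the list was −0.13, and −0.10 without control arrays 1 and 2. At an unadjusted p under 0.05 there were 8 of the 30, against 2235 of all 12595 genes. All deleted arrays lay above all controls in 5 members, against 9.78% of all genes, and the reverse held in 5, against 12.8%. The small number of calls does not show that these transcripts did not differ. These are transcript levels and do not report kinase activity.

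FOXO factors and their targets gave 1 call among 28 tested, against 0.746% of all genes called lower. Pink1, a kinase of mitochondrial quality control, fell from 337, 259 and 193 to 76.2, 76.6 and 64.7 (log2 fold change −1.63 ± 0.20 SE, limma adjusted p = 0.011). A second probe set read 272, 236 and 203 against 87.7, 107 and 84.3. Its call ended without control array 2 (0.062), and without control arrays 1 and 2 its log2 fold change was −1.24 (adjusted p = 0.12). The median of the list was 0.07, and 0.02 without those arrays.

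Quiescence regulators and cell cycle genes gave no call. In the list of quiescence regulators and CDK inhibitors 0 of 30 tested members passed in limma and 15 had an unadjusted p under 0.05. Of the 30, 23 were positive, and 10 had all deleted arrays above all controls, against 9.78% of all genes. The median was 0.34, and 0.12 without control arrays 1 and 2. The 4 largest differences of the list, Klf4, Klf6, Klf2 and Egr1, are also in the immediate early list. Of the CDK inhibitors, Cdkn1a (p21) read 135, 110 and 116 against 149, 164 and 187 (adjusted p = 0.19), Cdkn1b 128, 141 and 233 against 182, 178 and 156, and Cdkn1c 95.8, 79.7 and 149 against 81.0, 111 and 112. Id2, an inhibitor of basic helix-loop-helix factors, read 99.5, 63.2 and 36 against 21.4, 21.0 and 19.0 (adjusted p = 0.078). Medians were 0.14 over 39 genes of G1/S and DNA replication, where Ccne2 (cyclin E2) had 82.4 ± 31.7 and 164 ± 44.2 (SD, n = 3 each, adjusted p = 0.14) and Slbp 845 ± 96.2 and 1063 ± 38.0 (adjusted p = 0.17). Over 38 genes of G2/M and mitosis the median was 0.06 and turned to −0.08 without control arrays 1 and 2, with Bub1 at 309 ± 85.1 and 454 ± 87.8 and Birc5 at 384 ± 83.1 and 463 ± 21.9. At an unadjusted p under 0.05 there were 6 of the G1/S and 1 of the G2/M genes, against 2235 of all 12595, and the absence of calls does not show that these genes did not differ.

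Medians of the metabolic and biosynthetic lists lay between −0.13 and 0.13 with all 6 arrays. Of 22 redox genes 2 were called lower, against 0.746% of all genes. Mgst1, a microsomal glutathione transferase, fell from 901, 1004 and 664 to 370, 395 and 380 (log2 fold change −1.11 ± 0.15 SE, limma adjusted p = 0.017), and Nnt, the mitochondrial transhydrogenase that makes NADPH, from 365, 370 and 284 to 183, 203 and 158 (−0.85 ± 0.15 SE, adjusted p = 0.040). Gclm, a subunit of the enzyme of glutathione synthesis, read 386, 336 and 504 against 590, 845 and 706 (adjusted p = 0.079). The call of Mgst1 ended without control array 1 or 2 or deleted array 1 or 2 and that of Nnt in every omission except that of control array 3 (0.057 to 0.16), and neither passed without control arrays 1 and 2 (log2 fold changes −0.77 and −0.61, adjusted p of 0.16 and 0.43).

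No member was called by limma among 32 genes of oxidative phosphorylation (median 0.11, and 0.01 without control arrays 1 and 2), 23 of glycolysis (−0.02), 23 of sterol and fatty acid synthesis (0.00, and −0.34 without those arrays), 27 of lysosome and autophagy (−0.13), 29 MYC targets (0.13) or 22 cytosolic ribosomal proteins (0.00). At an unadjusted p under 0.05 there were 6, 3, 1, 6, 1 and 0 members of these lists, in the same order, against 2235 of all 12595 genes. Of the oxidative phosphorylation genes 23 were positive, 11 had all deleted arrays above all controls and 1 the reverse. For the MYC targets these counts were 23, 5 and 1, and for the lysosome and autophagy genes 10, 1 and 6. Over all genes 9.78% had all deleted arrays above all controls and 12.8% the reverse. Members with the smallest p were Cyc1 (818 ± 58.5 and 1072 ± 19.4, adjusted p = 0.096), Ndufa4, Pgam1 (1721 ± 124 and 1312 ± 47.5, SD, n = 3 each, adjusted p = 0.082), Pgd, Srebf2, Fads2, Ctsb, Ulk1, Wdr12, Npm1, Rps9 and Rps28. Sqle, the squalene epoxidase, read 87.1 and 47.6 on control arrays 1 and 2 but 217 on control array 3, against 145 to 182 in deleted cells.

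Adhesion genes gave 2 calls among 22 tested, both lower, against 0.746% of all genes. Itgal, the alpha chain of the integrin LFA-1, fell from 588, 480 and 463 to 238, 154 and 173 (log2 fold change −1.38 ± 0.18 SE, limma adjusted p = 0.012), and Pecam1 from 196, 154 and 88.1 to 50.0, 36.5 and 29.3 (−1.53 ± 0.27 SE, adjusted p = 0.033). The call of Itgal ended without control array 2 (0.062), that of Pecam1 as given above, and neither passed without control arrays 1 and 2 (−1.25 and −0.95, adjusted p of 0.17 and 0.29). The list's median was 0.00. Pecam1 was also the single call among 8 endothelial and stromal genes, whose endothelial receptor Kdr read 14.6 to 22.4 on all arrays.

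The lists of interferon response, BCL2 family and p53, and receptors held no call in limma. They were 28 interferon response genes (median 0.13, and 0.18 without control arrays 1 and 2), where Usp18 read 11.4, 7.53 and 14.7 against 88.0, 45.1 and 31.4 (adjusted p = 0.050, not called) and Gbp3 252, 320 and 412 against 181, 183 and 178 (adjusted p = 0.075), 21 genes of the BCL2 family and p53 (−0.02), with Bid at 562 ± 83.4 and 347 ± 31.1 (SD, n = 3 each, adjusted p = 0.067) and Sesn1 at 221 ± 40.2 and 144 ± 11.7 (adjusted p = 0.13), and 21 growth factor and cytokine receptors (−0.24), with Ifngr1 at 854 ± 62.0 and 556 ± 80.4 (adjusted p = 0.062). Nor did erythroid genes (8 tested, median 0.00, Nfe2 at 1437 ± 8.93 and 1163 ± 30.7, Tfrc at 401 ± 93.1 and 550 ± 136), T and NK genes (8 tested, 0.03, Bcl11b at 28.9 ± 6.90 and 52.7 ± 19.5, Nkg7 at 155 ± 157 and 31.7 ± 15.1) or dendritic cell and MHC class II genes (13 tested, −0.08, Cst3 at 1359 ± 26.3 and 2037 ± 555). At an unadjusted p under 0.05 there were 9 interferon, 5 BCL2 and p53, 10 receptor, 1 erythroid, 2 T and NK and 4 dendritic cell genes. Over all genes this held for 2235 of 12595. Of the 21 receptor genes 5 were positive. In 7 of them all controls lay above all deleted arrays, against 12.8% of all genes, and in 3 the reverse held, against 9.78%.

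**Figure D4:**
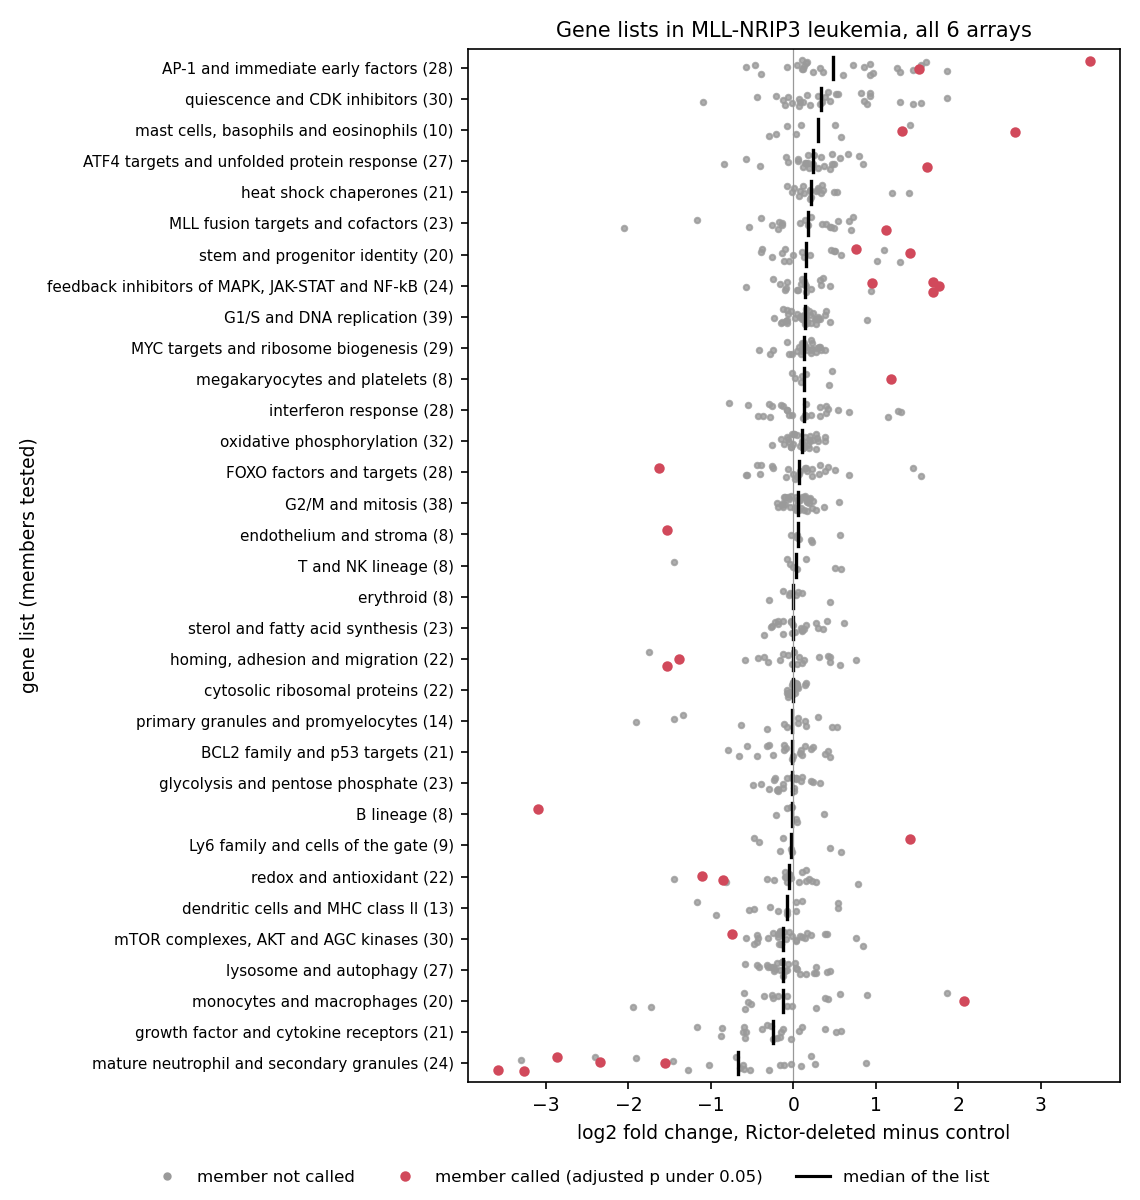
Log2 fold change (Rictor-deleted minus control, all 6 arrays) of every tested member of the 33 gene lists, ordered by the list's median (black bars). Red points are called members; the mature neutrophil list has the lowest median, −0.67, and the AP-1 and immediate early list the highest, 0.48.

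The difference between control arrays 1 and 2 and the other 4 arrays was itself large in some genes. In 38 genes both of these controls lay at least 2-fold above all 4 others, and in 11 at least 2-fold below, whereas 22 genes had all deleted arrays at least 2-fold above all controls and 17 the reverse. Mef2c, a MADS-box transcription factor of immature myeloid and B cells, read 1110 and 797 on control arrays 1 and 2, 11.9 on control array 3 and 41.5, 75.3 and 52.4 on the deleted arrays. Cd24a, a surface glycoprotein, read 4525 and 4106 there, 107 on control array 3 and 286, 251 and 904 on the deleted arrays. Hpse, heparanase, read 1251 and 579 against 131 and 105 to 132. In the opposite direction, Hmgn3, a nucleosome-binding protein, read 14.6 and 7.29 against 113 and 70.4 to 166. Of these 49 genes 4 were called between the genotypes, Ighm, Ngp, S100a8 and S100a9. A difference that follows these 2 arrays and one that follows genotype cannot be told apart in genes where control array 3 lies between.

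**Figure D5:**
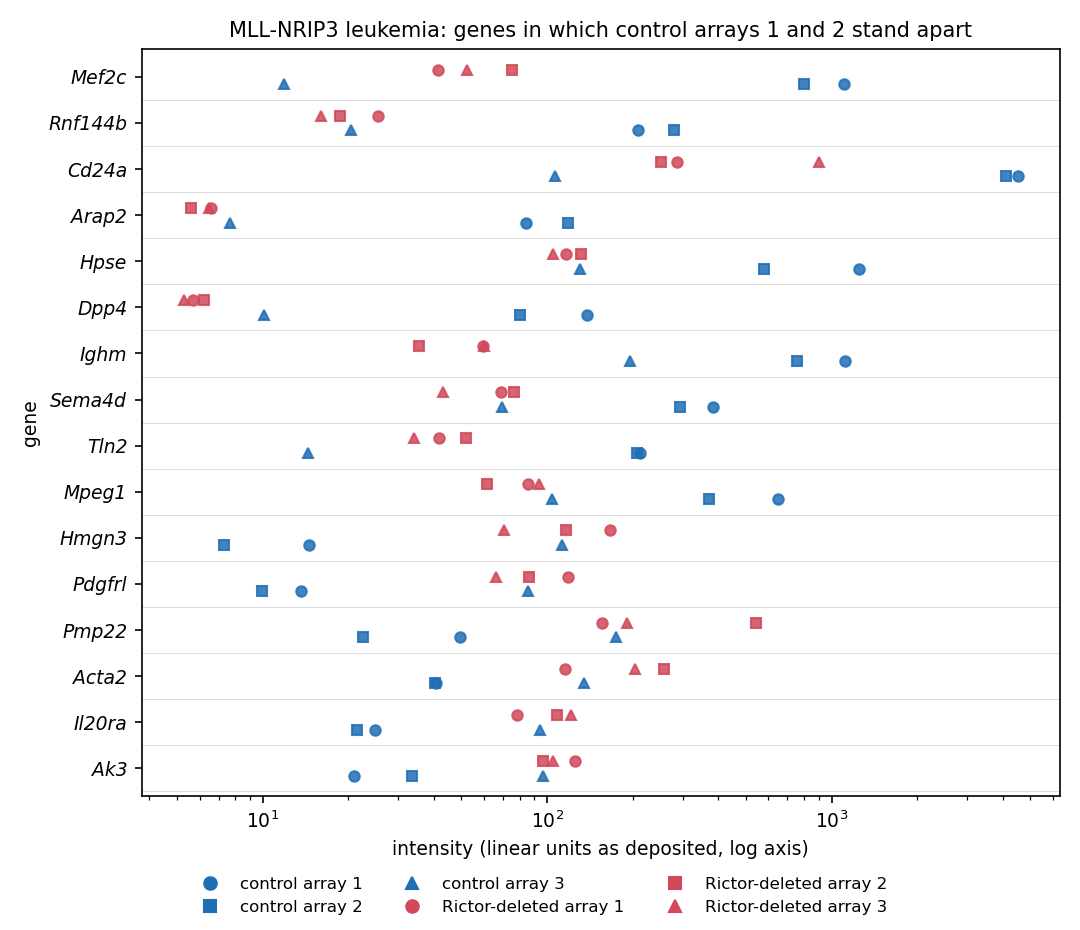
Intensity (log axis) on each of the 6 arrays for 10 genes in which control arrays 1 and 2 were at least 2-fold above the other 4 arrays and 6 in which they were at least 2-fold below. Blue symbols are control arrays and red symbols Rictor-deleted arrays; control array 3 (blue triangles) lies with or near the deleted arrays in most.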

How the data were processed

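Biotin-labelled cRNA from 7 µg of total RNA per array was hybridised, per the labels' protocols. The deposited table holds linear intensities, 1 per probe set and array, and neither labels nor header state how the authors summarised and normalized them. Of 45101 probe sets, 34958 had 1 gene symbol, 932 several and 9211 none in the platform annotation. A gene was its brightest probe set among those with 1 symbol, which gave 18194 genes, 18033 of them found in a RefSeq table (GRCm38.p6) used for names, gene order and promoters. Genes with a mean under 8.79, the 40th percentile, were left out (5599), and 12595 were tested. Of 223 further probe sets of called genes, 189 had a difference of the same sign as the probe set used.

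Values were used as log2(intensity + 16). R 4.3.3 and limma 3.58.1 fitted the 6 arrays (4 residual degrees of freedom, variance moderated along the mean intensity), 2-sided, with Benjamini-Hochberg adjustment over all tested genes. Tables and figures used Python 3.11.15, pandas 2.3.3 and matplotlib 3.10.9. On simulated data with 200 changed genes of 12595, 18%, 82%, 98% and 100% of log2 changes of 0.5, 1, 2 and 3 were recovered, with 7 false among 156 calls. The simulated noise was independent between arrays, with 1 spread per gene, and held no shared shift of control arrays 1 and 2. The share of false calls in the real data thus cannot be read from it.

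The members and the 33 gene lists were chosen with earlier results of these data known. Named genes were the 12 largest increases and decreases among called genes with separate groups (clone and predicted names left out), up to 10 per direction called also without control arrays 1 and 2, Rictor, Kit, Ptprc, Xist and Eif2s3y, the called members of each list or the 2 with the smallest p, and genes near the floor in 1 group and above 64 in the other. Genes named beyond this rule, such as Camp, Klf2, Hspa1a, Gclm, Card6, Trim5, Ctla2b and Mef2c, were chosen after their values were seen. Hybridization controls were read from 18 probe sets. Replicate numbers did not pair the arrays: same-numbered deviations from the group means correlated at 0.06, −0.14 and −0.06.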

Additional observations from a re-analysis of the deposited data

How the results depend on the processing

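The 192 calls (98 higher, 94 lower) stayed within 1.5 times of that number under quantile normalization, median centring, no filter on dim genes or one at the 60th percentile, a constant of 1 or 64 in place of 16, no trend in the moderation, and robust moderation. Calls rose to 1771 (764 and 1007) when all 12 arrays estimated the spread, to 3044 (1679 and 1365) with array weights, and to 473 (205 and 268) at an adjusted p under 0.10. They dropped to 80 (44 and 36) when probe sets of a gene were averaged, to 30 (14 and 16) when the signal of the hybridization controls entered as a covariate, and to 29 (10 and 19) without control arrays 1 and 2. Leaving out 1 array at a time gave 30 to 849 calls, 18 to 356 higher and 12 to 493 lower. The cause of these moves was not tested, and the omissions leave fewer arrays. With the replicate number as a block 162 genes were called (85 and 77), and the numbers do not pair the arrays. No named gene that was called reversed its sign under any of these settings. For the omissions of arrays this had to follow, since the groups of every called gene were separate. Arrays of 3 against 3 limit what can be detected: in simulation with noise independent between arrays, 18% of log2 changes of 0.5 were recovered.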
